A study of Homo sapiens with 4 samples.

Results

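The 10 genes described here are common markers of neuroendocrine and neuronal cells: the granins and granin-like genes SCG2, SCG3, SCG5, CHGA and CHGB, the neuronal proteins UCHL1 and RTN1, the vesicle protein SYP, the transcription factor INSM1 and the adhesion molecule NCAM1. They were taken by name, with every probe the platform annotation gives to that gene alone, which gave 16 of the 30113 named probes and 10 of the 20046 named genes. The list was selected on function with the differences between SOX7 and control arrays on these same 4 arrays already known, so its values are a description, and no p-value is given for its members. The samples came from the lung cancer line H23 (non-small cell type, established in culture), either overexpressing SOX7 (2 arrays) or overexpressing green fluorescent protein, GFP, as the control (2 arrays). RNA was taken at near confluence, and Illumina HumanHT-12 v4 BeadChips were used to read polyA transcripts as log2 intensities. SOX7 is a transcription factor of the SOXF subfamily. The labels give no clone, vector or time after transfer of the gene, nor do they tell if replicates were grown apart, so any p-value here rests on a spread that may be technical only.

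Neuroendocrine cells store peptide hormones in dense-core granules. Granins are acidic proteins that aggregate in the Golgi network and help to form these granules, and the peptides in them are cut from larger precursors by proprotein convertases and trimmed by carboxypeptidases. In the airway such cells are rare sensory cells of the epithelium. Some of the 10 markers, such as CHGA, are used by pathologists to recognise neuroendocrine lung tumours. In non-neuronal cells many of these genes are held down by the repressor REST.

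RTN1 is transcribed from several start sites, and its probes gave unlike values here, so the sequences before its starts are shown with those of UCHL1, another gene that was higher in SOX7 cells, and of CHGA, the granin most used in pathology, which was not. Each run gives the 250 bases before an annotated start, 5′ to 3′, from RefSeq on GRCh38.p14. Capitals mark exact matches to any of 4 motifs searched on both strands: the TATA box form TATAAA, the cyclic AMP response element core TGACGT, and the SOX motifs AACAAT and ACAAAG. Variants of these letters were not marked.
RTN1 outermost start (chr14:59870777-59871026, minus strand): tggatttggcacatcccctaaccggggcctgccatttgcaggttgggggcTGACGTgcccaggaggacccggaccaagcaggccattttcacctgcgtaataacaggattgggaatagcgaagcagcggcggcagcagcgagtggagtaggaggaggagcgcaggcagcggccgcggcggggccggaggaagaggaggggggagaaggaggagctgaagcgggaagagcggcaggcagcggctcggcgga
RTN1 middle start (chr14:59630624-59630873, minus strand): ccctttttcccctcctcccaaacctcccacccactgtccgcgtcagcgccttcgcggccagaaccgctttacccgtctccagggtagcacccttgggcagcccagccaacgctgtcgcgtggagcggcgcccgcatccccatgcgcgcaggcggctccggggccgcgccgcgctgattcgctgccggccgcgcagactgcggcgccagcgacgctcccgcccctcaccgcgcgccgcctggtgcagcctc
RTN1 innermost start (chr14:59610140-59610389, minus strand): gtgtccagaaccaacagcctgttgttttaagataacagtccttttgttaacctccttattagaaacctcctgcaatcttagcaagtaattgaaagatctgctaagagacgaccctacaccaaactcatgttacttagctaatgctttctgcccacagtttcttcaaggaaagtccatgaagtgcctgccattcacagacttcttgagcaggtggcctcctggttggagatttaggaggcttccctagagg
UCHL1 (chr4:41256678-41256927, plus strand): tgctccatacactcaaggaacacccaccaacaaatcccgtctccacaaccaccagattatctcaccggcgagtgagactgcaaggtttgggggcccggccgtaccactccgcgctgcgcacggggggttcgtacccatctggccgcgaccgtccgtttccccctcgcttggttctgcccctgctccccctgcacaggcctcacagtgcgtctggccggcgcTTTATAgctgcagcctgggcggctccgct
CHGA (chr14:92922900-92923149, plus strand): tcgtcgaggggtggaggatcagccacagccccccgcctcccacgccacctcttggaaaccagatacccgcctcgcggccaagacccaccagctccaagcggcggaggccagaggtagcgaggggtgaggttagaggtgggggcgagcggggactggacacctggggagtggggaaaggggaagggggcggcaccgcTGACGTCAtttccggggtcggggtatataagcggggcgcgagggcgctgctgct
The table held 8 start sites of 6 of the 10 genes (SCG3, SCG5, CHGA, UCHL1, RTN1 and SYP). TATAAA was found before UCHL1 on the minus strand, opposite to the gene, at 29 to 24 bases before the start, and in 10.7% of the 35116 sequences of this length. The CHGA sequence holds the variant tatataa near its start, which was not searched for, so the absence of a mark there does not mean that CHGA lacks a TATA box. The core TGACGT was found before the outermost RTN1 start, at 200 to 195 bases, and on both strands in overlapping positions before CHGA, against 7.1% of all sequences. The motif AACAAT (8.98% of all sequences) was found before none of the 8 starts, and ACAAAG (13.7%) was found before SCG3 alone, on the minus strand. The middle and innermost RTN1 starts, SCG5 and SYP held none of the 4 motifs in this window.

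The arrays had the same distribution of values, with a median of 6.26 on the log2 scale. The 2 SOX7 arrays correlated at r = 0.995 across all probes, the 2 control arrays at r = 0.995, and arrays of different groups at 0.990. In the brighter SOX7 probe, 6.53 and 6.78 were read in the SOX7 arrays, against 6.18 and 6.45 in the control arrays, a difference of 0.34 (limma adjusted p = 0.0583, not past 0.05; 0.00876 to 0.322 with 1 array left out). The other SOX7 probe differed by 0.0039. Whether either probe can read the introduced transcript was not known, and they give no check of the labels or of the overexpressed level. Of the defining markers of other cell types, all 5 endothelial genes on the array had means under 6.25 on the log2 scale, the median over all probe means. Of the 4 immune genes on the array, PTPRC and CD3E also lay below it. The other two passed the filter described below and changed in opposite directions: CD68, a lysosomal glycoprotein, was lower in SOX7 cells (−1.04, limma adjusted p = 5.07e-05) and CD14 was higher (0.64, limma adjusted p = 4.82e-04). The other 2 CD68 probes differed by −0.29 and −0.28, and the other CD14 probe by 0.35. The summed linear intensity of the 4 immune genes was 1616 and 1515 in the SOX7 arrays, against 2196 and 1872 in the control arrays. Of the 6 fibroblast genes, 2 lay below the filter and LUM was higher (0.52, limma adjusted p = 0.00156), at 6.69 and 6.79 in the SOX7 arrays, against 6.21 and 6.23 in the control arrays. LUM passed the filter only through its SOX7 arrays, and its other probe differed by 0.044. The sum of the 6 fibroblast genes was 486.9 and 489.5 in the SOX7 arrays, against 459.5 and 490.4 in the control arrays. Of the 6 epithelial markers, 2 lay below the filter and KRT18, the brightest, was higher in SOX7 cells (0.45, limma adjusted p = 0.00453). KRT8 (0.22), EPCAM (0.14) and KRT7 (−0.028) did not pass. The summed linear intensity of all 6 was 1148 and 1144 in the SOX7 arrays, against 959.5 and 946.2 in the control arrays. The part of these marker genes in the results below was not tested. A set of neuroendocrine markers had 6 genes on the array: CHGA, SYP, INSM1 and NCAM1 of the 10 markers, with DLL3 and GRP. GRP lay below the filter, and 0 of the 5 tested were past an adjusted p of 0.05, against 18.8% of all genes tested. The summed linear intensity of the 6 was 1488 and 1526 in the SOX7 arrays, against 1298 and 1414 in the control arrays. DLL3 was the brightest. No detection calls were used, so values close to the median of an array may be background.

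Of the 10 markers, 3 were higher in SOX7 cells. RTN1, SCG2 and UCHL1 were higher by 2.09, 1.43 and 1.01 on the log2 scale, or 4.25-fold, 2.69-fold and 2.02-fold. The size for RTN1 is not exact, since its control arrays lay in a range that may be background. CHGA, CHGB, SYP, INSM1 and NCAM1 differed by −0.17, −0.014, −0.10, −0.0018 and −0.0062. All of these but CHGB lay close to the array median, where a fall or a small rise may not be detectable. SCG3 and SCG5 lay below the intensity filter, which removes genes with a mean under the median of all probe means. Genes were compared by limma across the 12804 genes that passed this filter, each by its brightest probe. Of the 8 markers tested, 3 were past an adjusted p of 0.05 and higher, and 0 were lower, where 18.8% of all genes tested were past it in either direction, 8.98% higher and 9.83% lower. SOX7 and control arrays were without overlap for 3 of the 8 that were higher and 1 that was lower, against 58.5% of all genes tested, 29.6% higher and 29% lower. RTN1 passed the filter only through its SOX7 arrays. The median difference over the 8 was −0.0040, against 0.0035 over all genes tested. In such bulk samples a change in the share of cells that express a gene and a change in RNA per cell cannot be told apart.

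**Figure D1:**
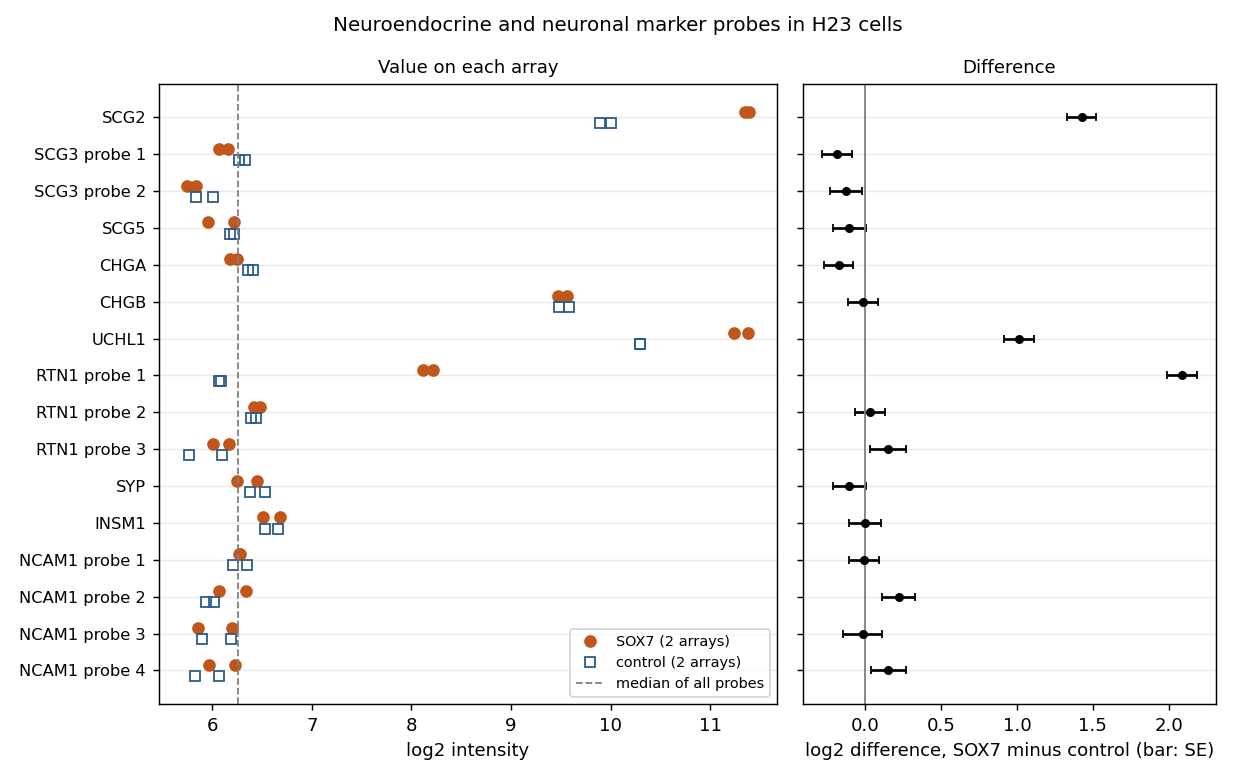
Left, log2 intensity of each of the 16 marker probes on the 2 SOX7 arrays (filled circles) and the 2 control arrays (open squares), with the median of all probes as a dashed line. Right, the log2 difference of each probe, SOX7 minus control, with its standard error. SCG2, UCHL1 and probe 1 of RTN1 lie apart from 0, between 1.01 and 2.09, and the other 13 probes lie between −0.19 and 0.22.

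SCG2 encodes secretogranin II, a granin and the precursor of the neuropeptide secretoneurin. Its probe read 11.35 and 11.39 in the SOX7 arrays, against 10 and 9.89 in the control arrays. The groups lay far apart relative to the gap within each, and the gene was already bright in control cells. The log2 difference was 1.43 (SE 0.089), and 0.305% of all genes tested differed by more in size. CHGB, which encodes chromogranin B, was bright too but read 9.47 and 9.56 in the SOX7 arrays, against 9.58 and 9.48 in the control arrays. Its groups overlapped, and the difference was −0.014 (SE 0.090), with a 95% confidence interval of −0.21 to 0.18.

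CHGA, the gene of chromogranin A, read 6.25 and 6.18 in the SOX7 arrays, against 6.41 and 6.36 in the control arrays. The SOX7 arrays were the lower ones without overlap, in a range close to the array median, and the difference of −0.17 (SE 0.087) did not pass the threshold. SCG3, secretogranin III, which anchors granins to the granule membrane, had 2 probes. Probe 1 read 6.07 and 6.16 in the SOX7 arrays, against 6.33 and 6.27 in the control arrays, a difference of −0.19 (SE 0.098). Probe 2 read 5.84 and 5.75 in the SOX7 arrays, against 6.01 and 5.83 in the control arrays, with overlapping groups. SCG5 encodes 7B2, the chaperone of the proprotein convertase PC2, and read 6.22 and 5.96 in the SOX7 arrays, against 6.18 and 6.22 in the control arrays. Its SOX7 arrays differed from each other by more than the groups did, and it, SCG3 and CHGA stayed within the dim range in every array. Of the 5 granins and granin-like genes, only SCG2 and CHGB were thus bright enough for a fall to be seen. In the other 3 a small rise may be missed too, but none of them showed a rise like that of SCG2.

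UCHL1 encodes a ubiquitin C-terminal hydrolase that is abundant in neurons and known as PGP9.5. It read 11.24 and 11.38 in the SOX7 arrays, against 10.30 and 10.30 in the control arrays. The groups did not overlap, and the gap of 0.14 within the SOX7 arrays was the larger of the within-group gaps. The log2 difference was 1.01 (SE 0.090). Of the 10 tested genes nearest to it on chromosome 4, 0 were past the threshold and their median difference was 0.13. With the median of a wider window of neighbouring genes removed, the difference of UCHL1 was 0.91, and that of SCG2 on chromosome 2 was 1.29.

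RTN1 encodes reticulon 1, a membrane protein of the endoplasmic reticulum also known as neuroendocrine-specific protein, with 3 probes. Probe 1 read 8.21 and 8.12 in the SOX7 arrays, against 6.09 and 6.07 in the control arrays. Its control arrays lay below the array median, in a range that may be background. The log2 difference of 2.09 (SE 0.088) is therefore that of the deposited intensities, and the fold in RNA is not known from it. Probe 2 read 6.42 and 6.48 in the SOX7 arrays, against 6.44 and 6.39 in the control arrays, and probe 3 read 6.17 and 6.01 in the SOX7 arrays, against 6.10 and 5.77 in the control arrays. Neither repeated the difference of probe 1, at 0.031 (SE 0.097) and 0.15 (SE 0.12), and neither was above 6.48 on any array. The annotation assigns probes 1 and 2 to the same transcript record and probe 3 to another. As the mean of its 3 probes the gene differed by 0.76. The 3 start sites printed above lie apart on chromosome 14, and which of them each probe reads is not given in the sources used here.

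The remaining markers were dim. SYP encodes synaptophysin, a membrane protein of small synaptic-like vesicles, and read 6.45 and 6.25 in the SOX7 arrays, against 6.53 and 6.38 in the control arrays. INSM1, a zinc-finger transcription factor of neuroendocrine differentiation, read 6.68 and 6.51 in the SOX7 arrays, against 6.53 and 6.66 in the control arrays. Their groups overlapped, with differences of −0.10 (SE 0.10) for SYP and −0.0018 (SE 0.096) for INSM1. NCAM1 encodes CD56, the neural cell adhesion molecule, and had 4 probes, with 1 above the filter. That probe read 6.28 and 6.27 in the SOX7 arrays, against 6.21 and 6.35 in the control arrays, and its 95% confidence interval was −0.20 to 0.19. The other 3 NCAM1 probes differed by 0.22, −0.018 and 0.15, with the SOX7 arrays higher without overlap in the first of these at 6.34 and 6.07, against 6.02 and 5.94. In that probe the gap between the SOX7 arrays was wider than the difference.

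In the fit across all 30113 named probes, 3 of the 16 marker probes were past the threshold, all higher, where 6.7% of all named probes were past it and 3.13% were higher. The 13 others comprised the CHGB probe and 12 probes that lay between 5.75 and 6.68 on every array. Of the 13, 4 had differences above 0 and 9 below. Arrays of the groups did not overlap for 4 of 16 probes that were higher and 2 that were lower, where 47.7% of all named probes did not overlap, 23.8% higher and 23.8% lower.

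The genes with the array pattern closest to RTN1 and UCHL1 were found by the Euclidean distance over the 4 arrays, each gene centred on its own mean, among 12803 other genes. RTN1 was closest to the metalloreductase gene STEAP1 (distance 0.18), ZNF365 (0.20) and the transcription factor gene ETS2 (0.21), which differed by 1.96, 2.13 and 1.93. UCHL1 was closest to the phospholipase gene PLCD4 (0.029), the cyclin D2 gene CCND2 (0.043) and the Notch target HEY1 (0.055), which differed by 1.003, 1.03 and 1.003. With 4 arrays in 2 groups, such distances mainly show that the differences were of like size, and that of RTN1 rests on control arrays in the dim range.

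Genes that act with these markers were taken from 7 further lists of 166 genes, of which 157 were on the array and 110 were tested. Of the 110, 20 rose and 10 fell, or 27.3%, against 18.8% of all genes tested. The lists were written with earlier results of these data known, so their counts are a description. Single genes in the following paragraphs are given with limma's adjusted p over all 12804 genes and their log2 differences.

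Of 13 tested genes of dense-core granules and prohormone processing, 1 rose and 4 fell (38.5%, against 18.8% of all genes tested). The median of the 13 was −0.084, and the 3 with the smallest p fell. CPE, the carboxypeptidase that trims prohormone intermediates, read 7.82 and 7.81 in the SOX7 arrays, against 9.18 and 9.13 in the control arrays. The groups lay over a unit apart, and CPE fell by 1.34 on the log2 scale (SE 0.086, limma adjusted p = 1.16e-06). VGF, a granin-like neuropeptide precursor, read 9.94 and 10.05 in the SOX7 arrays, against 10.58 and 10.66 in the control arrays, and fell by 0.62 (SE 0.090, limma adjusted p = 5.63e-04). PAM, the enzyme that amidates peptide ends, read 12.45 and 12.53 in the SOX7 arrays, against 12.91 and 13.00 in the control arrays, and fell by 0.47 (SE 0.089, limma adjusted p = 0.00317). These 3 enzymes and precursors were bright, with no overlap between groups, as was so for 58.5% of all genes tested.

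CPD, a carboxypeptidase of the Golgi network, fell by 0.28 (limma adjusted p = 0.0426), and CYB561, an electron carrier of the granule membrane, rose by 0.32 (limma adjusted p = 0.0213). The calls of CPD and CYB561 were lost on leaving out any 1 of the 4 arrays, with adjusted p up to 0.185 for CPD (without SOX7 replicate 2) and 0.0952 for CYB561 (without SOX7 replicate 1). The other 2 CYB561 probes differed by 0.027 and 0.11 without passing. The convertase genes PCSK1 and PCSK2 were not analysed here.

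**Figure D2:**
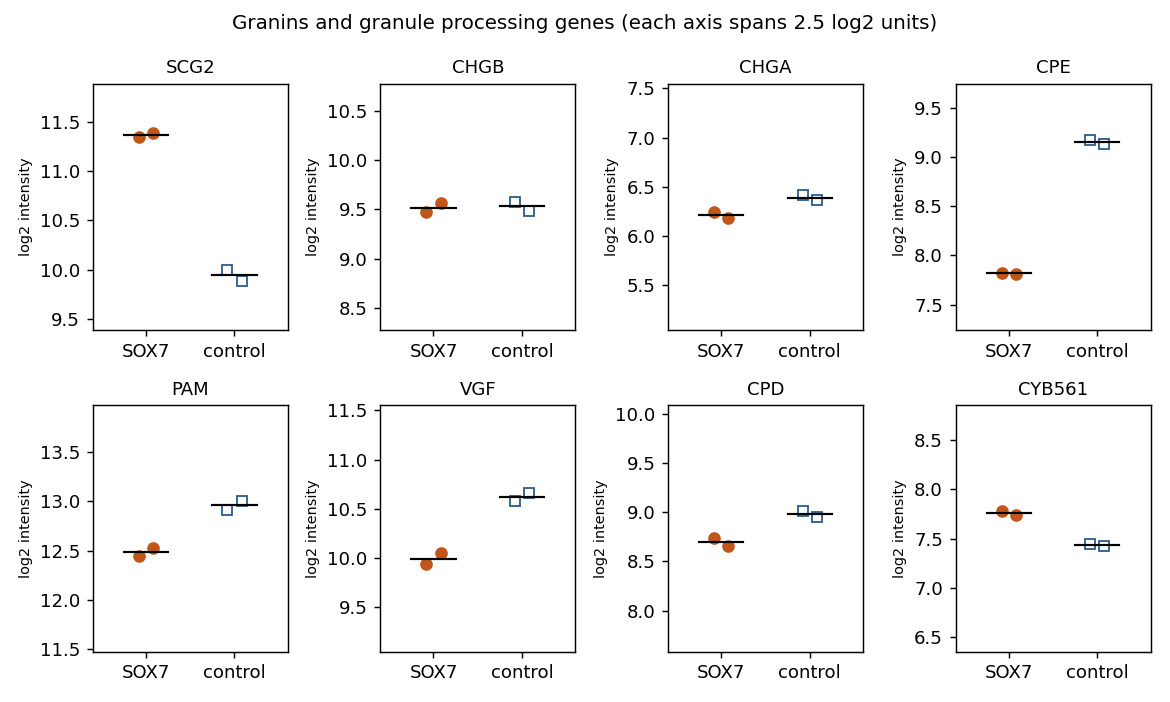
Log2 intensity on the 2 SOX7 arrays (filled circles) and the 2 control arrays (open squares) for 3 granins and 5 granule processing genes, with group means as bars and an axis of the same span for each gene. SCG2 is higher in SOX7 cells, CPE, PAM, VGF and CPD are lower, and the groups of CHGB overlap.

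By their brightest probes, transcription factors of neuroendocrine and neuronal cells rose in 2 and fell in 0 of 13 tested genes. That was 15.4%, against 18.8% of all genes tested, and the median was 0.18. PAX6 did not pass by its brightest probe (−0.11). Its second probe, also above the filter, fell by 0.48 in the fit across all named probes (limma adjusted p = 0.0148). The third PAX6 probe, below the filter, differed by 0.0013. ISL1, a LIM homeodomain factor, read 9.11 and 8.94 in the SOX7 arrays, against 8.497 and 8.54 in the control arrays, and rose by 0.51 (limma adjusted p = 0.00257). MYCN read 6.79 and 6.57 in the SOX7 arrays, against 6.38 and 6.19 in the control arrays, and rose by 0.40 (limma adjusted p = 0.0204). MYCN lay near the array median, its other probe differed by −0.10, and its call was lost without control replicate 2 (adjusted p = 0.101) or SOX7 replicate 1 (adjusted p = 0.150). The Notch ligand DLL3, a surface marker of neuroendocrine lung tumours, was bright, at 10.08 and 10.17 in the SOX7 arrays, against 9.80 and 9.96 in the control arrays. Its difference of 0.25 did not pass (limma adjusted p = 0.0891), and its other probe, also above the filter, differed by −0.011. DLL3 passed with a filter at the 75th percentile (limma adjusted p = 0.0399) and with a trend and robust prior (limma adjusted p = 0.0339). It passed in none of the other settings.

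Among REST, its cofactors and other repressors of neuronal genes, 2 of 16 tested genes rose and 0 fell (12.5%, against 18.8% of all genes tested), with a median of 0.083. REST itself read 6.73 and 6.37 in the SOX7 arrays, against 6.43 and 6.48 in the control arrays, with overlapping groups. HEY1, a basic helix-loop-helix repressor, rose by 1.003 (SE 0.092, limma adjusted p = 1.85e-05), although its other probe differed by −0.036. HEY1 passed the filter only through its SOX7 arrays. CTDSP2, a small phosphatase that acts with REST, rose by 0.30 (limma adjusted p = 0.0364), a call lost without control replicate 2 (adjusted p = 0.159), SOX7 replicate 1 (0.0671) or SOX7 replicate 2 (0.174).

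Of the synaptic vesicle and SNARE fusion genes, 2 of 25 tested genes rose and 2 fell, with a median of −0.045. VAMP1, a vesicle SNARE, read 7.19 and 7.10 in the SOX7 arrays, against 7.66 and 7.85 in the control arrays, and fell by 0.61 (limma adjusted p = 8.90e-04), while its other 2 probes differed by −0.19 and 0.053. SNAP25, a SNARE of the plasma membrane, fell by 0.36 (limma adjusted p = 0.0128), a call lost without SOX7 replicate 2 (adjusted p = 0.0716). The calcium sensor SYT1 rose by 0.50 (limma adjusted p = 0.00188), with its other probe at −0.10, and the vesicle priming gene UNC13B rose by 0.38 (limma adjusted p = 0.0136), a call lost without SOX7 replicate 1 (adjusted p = 0.0992). The 4 genes past the threshold were 16% of the 25, against 18.8% of all genes tested.

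Genes of the neuronal cytoskeleton, adhesion and RNA binding moved in both directions. Of 24 tested genes, 8 were higher and 3 lower (45.8%, against 18.8% of all genes tested), with a median of 0.17. DPYSL3, a regulator of growth cone microtubules, read 8.29 and 8.55 in the SOX7 arrays, against 7.46 and 7.41 in the control arrays, and rose by 0.98 (SE 0.10, limma adjusted p = 4.45e-05). The adhesion molecule NRCAM rose by 0.76 (SE 0.090, limma adjusted p = 1.21e-04), with its other probe 0.47 higher, and passed the filter only through its SOX7 arrays. The neurofilament gene NEFH read 8.84 and 8.79 in the SOX7 arrays, against 8.31 and 8.05 in the control arrays, and rose by 0.63 (SE 0.10, limma adjusted p = 0.00115). TUBB2B, a neuronal tubulin, rose by 0.56 (limma adjusted p = 0.00154); it shares long stretches with other tubulin genes, so its probe may read their transcripts too.

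The other 4 genes that rose, named after their values were seen, were the neurofilament gene NEFL (0.67), the dendritic microtubule protein gene MAP2 (0.51), DCLK1 (0.51) and DPYSL2 (0.38). MAP2 had 4 probes, which differed by 0.51, 0.56, −0.098 and 0.13. The call of DCLK1 was lost without SOX7 replicate 2 (adjusted p = 0.0558), and that of DPYSL2 without control replicate 1 (0.0613) or SOX7 replicate 2 (0.0716). The 3 genes that fell, also named afterwards, were DPYSL4 (−0.60, limma adjusted p = 0.00277), the adhesion molecule L1CAM (−0.40, limma adjusted p = 0.00690) and the stathmin STMN3 (−0.28, limma adjusted p = 0.0408). The second L1CAM probe differed by 0.16 in the opposite direction, and the call of STMN3 was lost on leaving out any 1 array, with adjusted p up to 0.180 (without SOX7 replicate 2). The neuronal tubulin TUBB3 (0.060), the neuronal enolase ENO2 (0.18) and STMN2 (−0.12) did not pass.

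**Figure D3:**
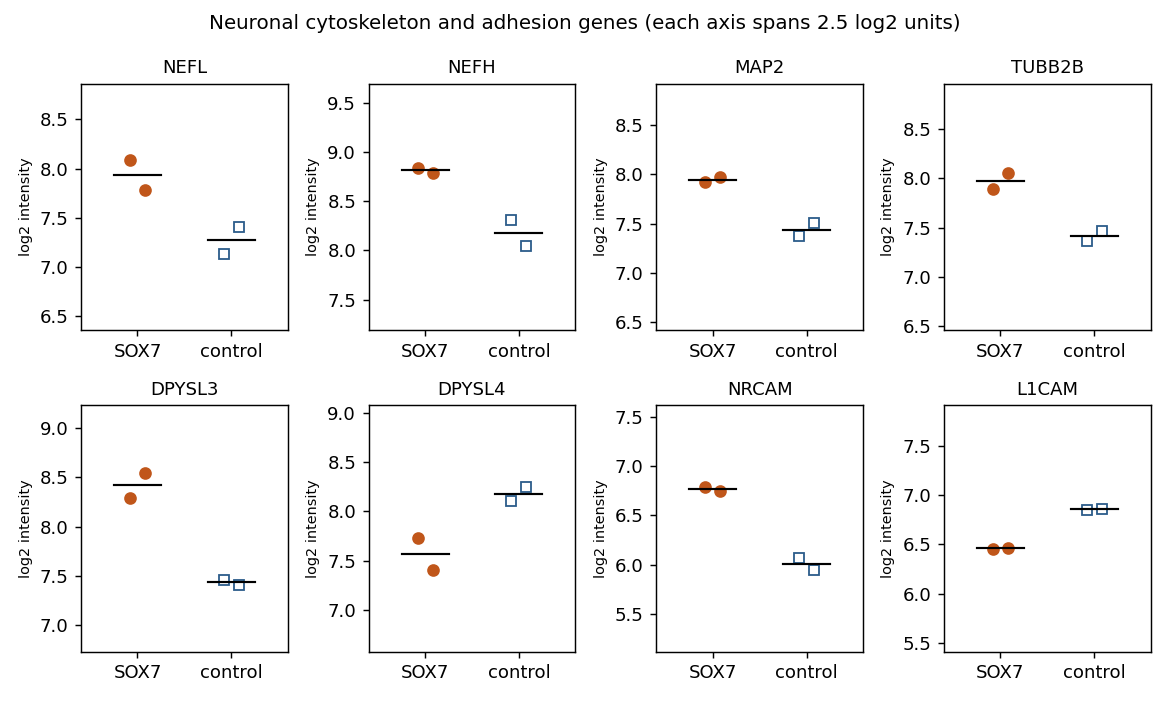
Log2 intensity on the 2 SOX7 arrays (filled circles) and the 2 control arrays (open squares) for 8 neuronal cytoskeleton and adhesion genes, with group means as bars and an axis of the same span for each gene. The groups do not overlap for any of the 8, with DPYSL4 and L1CAM lower in SOX7 cells and the other 6 higher. All 8 were picked from genes past the threshold. Arrays of the groups did not overlap for 58.5% of all genes tested.

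Of the peptides of lung neuroendocrine cells and their receptors, 3 of 10 tested genes rose and 0 fell (30%, against 18.8% of all genes tested). The median was 0.17, and 12 of the 22 on the array lay below the filter. CALCRL, the receptor subunit for calcitonin gene-related peptide and adrenomedullin, read 7.38 and 7.36 in the SOX7 arrays, against 5.90 and 5.74 in the control arrays, and rose by 1.55 (SE 0.092, limma adjusted p = 6.35e-07). It passed the filter only through its SOX7 arrays, so its size is not exact, and it is also a gene of endothelial cells. The neurotensin gene NTS rose by 0.44 (limma adjusted p = 0.00799) and neuromedin B, NMB, by 0.33 (limma adjusted p = 0.0388). NTS lost its call without SOX7 replicate 2 (adjusted p = 0.0750), and its other probe differed by 0.22, while NMB lost it without control replicate 2 (0.244), SOX7 replicate 1 (0.0666) or SOX7 replicate 2 (0.192). The peptide genes GRP and CALCA lay below the filter.

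Among paralogues of the 10 markers, 2 of 9 tested genes rose and 1 fell (33.3%, against 18.8% of all genes tested), with a median of −0.14. The ubiquitin hydrolases UCHL5 (0.33, limma adjusted p = 0.0216) and UCHL3 (0.30, limma adjusted p = 0.0322) rose, beside 1.01 for UCHL1. The reticulon RTN3 fell by 0.31 (limma adjusted p = 0.0417), with its other probes at −0.27, −0.086 and 0.10, the last 2 below the filter. RTN2 and RTN4 differed by −0.15 and 0.10 without passing. The 3 calls were lost without SOX7 replicate 2, with adjusted p of 0.0645 for UCHL5, 0.164 for UCHL3 and 0.0513 for RTN3. They were also lost without SOX7 replicate 1 or control replicate 1, with adjusted p up to 0.0979 for UCHL5, 0.107 for UCHL3 and 0.216 for RTN3, and UCHL3 lost its call without control replicate 2 as well (0.0682).

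**Figure D4:**
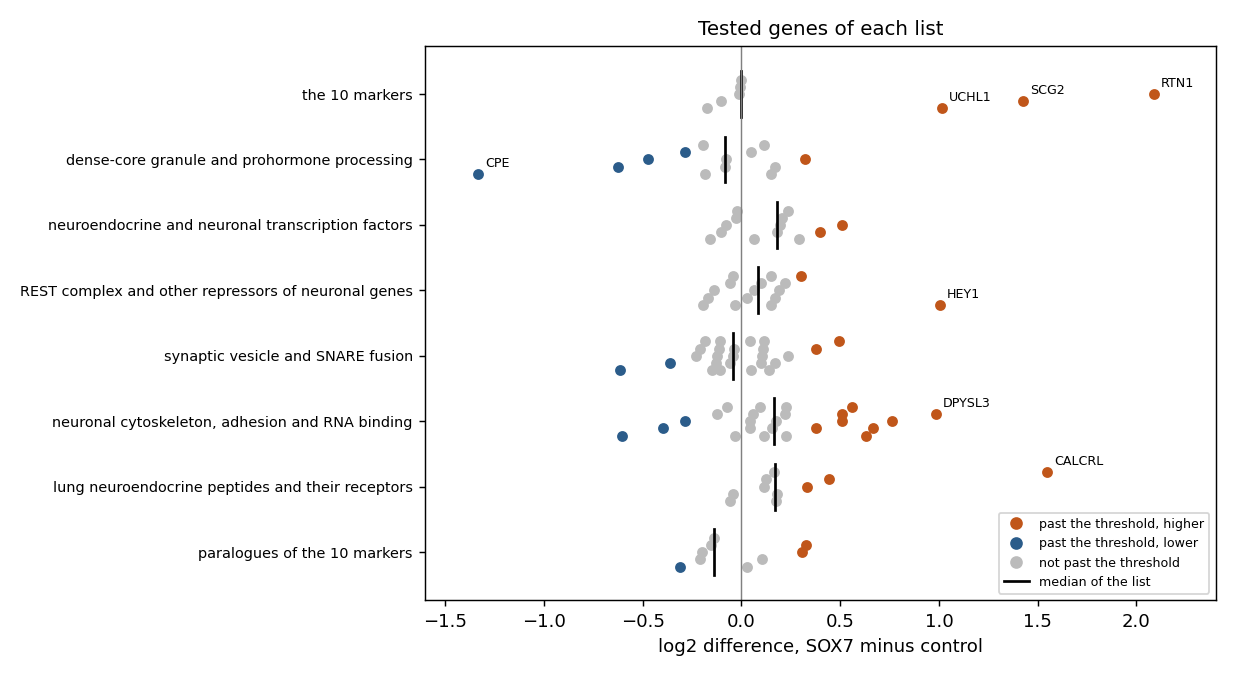
Log2 difference, SOX7 minus control, of every tested gene in the list of 10 markers and in the 7 further lists, with 1 point for each gene, coloured by whether it was past the threshold and by direction, and the list's median as a black line. Most points lie within 0.4 of 0, with RTN1 (2.09), CALCRL (1.55) and SCG2 (1.43) farthest to the right and CPE (−1.34) farthest to the left.

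The differences of the 8 tested markers were set against other ways of processing the arrays. The markers were chosen with these differences known, so the values describe the settings and are no test of the markers. SCG2 ran from 1.29 to 1.48, UCHL1 from 0.91 to 1.09 and RTN1 from 0.76 to 2.14, and each was past the threshold in every setting in which it was tested. RTN1 was not tested at a filter on the 75th percentile of probe means, where its mean lay below. None of CHGA, CHGB, SYP, INSM1 and NCAM1 was past the threshold in any setting. CHGB, INSM1 and NCAM1 each changed sign in some of these settings, at most to 0.085.

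**Figure D5:**
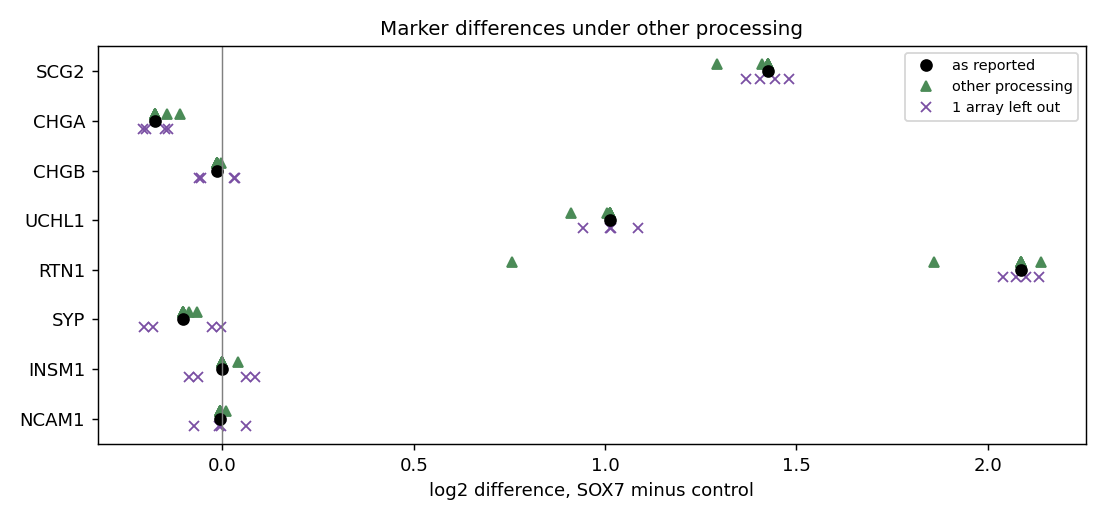
Log2 difference, SOX7 minus control, of the 8 tested markers as reported (black circles), under other processing (green triangles) and with 1 array left out (purple crosses). SCG2, UCHL1 and RTN1 stay above 0.75 throughout, and the other 5 markers stay between −0.21 and 0.085.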

How the data were processed

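Each of 4 samples had 48107 deposited log2 intensities. After sorting, the arrays agreed to within 0.000683, so the authors had quantile normalized them; no source used here states their software or background correction. The platform annotation gave 1 gene to 30113 probes, several to 8 and none to 17986; 30074 probes had an identifier found in RefSeq GRCh38.p14. Each gene was taken by its brightest probe, and a mean of at least the median of all probe means was required, which left 12804 genes. Groups were compared by limma 3.58.1 in R 4.3.3 with statmod 1.5.0 (two-sided, Benjamini-Hochberg over the genes fitted, threshold 0.05). The fit was also run on simulated data, drawn with the variances that the fit itself estimates. Such a run checks the code and cannot show whether the spread between these replicates is technical only. A second fit took every named probe without a filter. The number of arrays limits the precision.

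Members and lists were chosen with earlier results of these data known. The text names all 10 markers, the 3 genes nearest to RTN1 and to UCHL1, and from each list up to 4 genes past the threshold with the smallest p. CPD, NEFL, MAP2, DCLK1, DPYSL2, DPYSL4, L1CAM and STMN3 were added after their values were seen. So were PAX6 and the other genes named as not past the threshold. Alternatives were no filter, a stricter filter (75th percentile), 16 added to linear values, averaged probes, a trend and robust prior, median centring, quantile normalization, a replicate block, removal of the median change of neighbouring genes, a threshold of 0.01 and leaving out each array. With 1 array left in a group, it is assumed to vary like the other group. H1299 and PC14 cells were not analysed here.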

Additional observations from a re-analysis of the deposited data

How the results depend on the processing

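Of the 8 tested markers, the 3 past the threshold stayed past it, and 5 stayed below it, in every alternative that tested them; 2 were higher at the 75th percentile filter, where RTN1 was not tested. CHGA, SYP, INSM1 and NCAM1 were not tested there either. As the markers were chosen with their differences on these arrays known, this describes the settings only.

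Counts over all genes moved from 2408 to 1224 at a threshold of 0.01 and ran from 1529 to 1984 with 1 array left out. Over all named probes 2018 passed, against 3138 with the trend and robust prior, 1042 at a threshold of 0.01 and 836 to 1404 with 1 array left out. Of the 7 further lists, 20 genes rose and 10 fell, against 12 and 6 at a threshold of 0.01, and 12 to 17 higher and 6 to 9 lower with 1 array left out. The cause was not tested beyond the stricter threshold and the smaller number of arrays. The median difference of the tested markers was 1.01 at the 75th percentile filter, where SCG2, CHGB and UCHL1 were left.

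Without the intensity filter, CPD, CYB561, CTDSP2, NMB, UCHL3, UCHL5, RTN3 and STMN3 no longer passed the threshold. With the mean of a gene's probes, CYB561, MYCN, SYT1, RTN3 and L1CAM no longer passed it. With neighbour-centred values, the same was true of CPD, CTDSP2, UNC13B, NTS, UCHL5, RTN3 and STMN3.

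Deviations of arrays with the same replicate number correlated at −0.017 across genes. With 2 arrays a group this does not settle whether the numbers pair the samples. With the replicate number as a block 2834 genes and 2787 probes passed, the 3 markers among them, with 21 genes of the further lists higher and 10 lower. The SOX7 gene, at 0.34, had an adjusted p of 0.00906 with this replicate block. Among the markers and the genes named as past the threshold, none changed its call under it.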
